A study of Mus musculus with 6 samples.

Results

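The laminin and integrin genes, which encode the main basement membrane proteins and their cell surface receptors, were read from the poly(A) RNA-seq table of mouse embryonic telencephalon. They were chosen by symbol, as Lama, Lamb or Lamc followed by a single digit from 1 to 5, every Itga gene, and Itgb1 to Itgb8, which gave 37 of 24444 genes, 11 laminin chains and 26 integrin subunits. The series holds 6 libraries of telencephalon, the part of the forebrain from which cortex and basal ganglia arise, from C57BL/6J embryos at E12.5. Of these, 3 were labelled Wild-type and the other 3 Arl13b-/- (Arl13b-null 1 to 3 in this text). The labels name no further allele or agent, and the genotypes are used as labelled: no value given here checks them. Whether each library is a separate embryo is not stated, so p-values here reflect the spread among libraries alone, part of which may be technical.

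Laminins are cross-shaped trimers of 1 alpha, 1 beta and 1 gamma chain that assemble into the sheet of every basement membrane. In the embryonic forebrain this sheet lies under the pia, where the end-feet of radial glia attach, and around blood vessels. Integrins are pairs of an alpha and a beta subunit that bind laminins, collagens, fibronectin and other ligands outside the cell and link them to actin inside it.

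Some libraries stood apart. Depth, estimated from the step between the lowest values, was between 27600000 and 51700000 reads per library. Wild-type 1 and Arl13b-null 2 differed from the rest in markers of dividing cells, whose 10 genes summed to 16190 and 1849 normalized counts there, against between 64570 and 75180 in the other 4 libraries. Each comparison is therefore given for all 6 libraries and for the 4 others, wild-type 2 and 3 against Arl13b-null 1 and 3. In those 4, sex and genotype cannot be told apart: Ddx3y, a Y-linked gene, had 1093 and 1258 normalized counts in wild-type 2 and 3, against 0 and 1.24 in Arl13b-null 1 and 3. Arl13b-null 3 was lowest in Emx1, a marker of the dorsal telencephalon, at 24.99 normalized counts. Arl13b-null 1 followed at 145, and the remaining libraries had between 633 and 2641. The sum of 8 telencephalon markers was 10930 for Arl13b-null 3, 18910 for Arl13b-null 1 and between 20980 and 32810 elsewhere. By Emx1 and by this sum both were thus low in markers of the labelled tissue, but single markers differed. Arl13b-null 1, at 2964 for Dlx1 and 3663 for Dlx2, lay between wild-type 2 (2565 and 3060) and wild-type 3 (3257 and 3840). Arl13b-null 2 was the lowest library for 5 of the 8 markers. With 4 libraries all 8 markers were lower in Arl13b-null, with a median difference of −1.32 on the log2 scale, and 0 passed an adjusted p of 0.05 in limma.

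Of the 37 genes, 31 had values high enough to be tested. For 18 of them, the main pial chains Lama1, Lamb2 and Lamc1 and the integrin Itgb1 included, the mean normalized count of Arl13b-null 1 and 3 was between 0.8 and 1.25 times that of wild-type 2 and 3. Lama5, Itga8, Itgb4 and the epithelial chains Lama3 and Lamb3 were at between 0.18 and 0.51 times that mean, and Itgb8 at 1.47 times. With all 6 libraries 0 of 31 genes passed an adjusted p of 0.05 in limma, as did 0 of 14249 genes tested (0%), and 2 of the 31 had an unadjusted p under 0.05, Lama3 and Lama5, both lower in Arl13b-null, against 1.14% of all genes in either direction and 1.03% lower. The median difference of the 31 was −0.75 on the log2 scale, against 0.0026 over all genes tested. With 4 libraries again 0 of 31 passed in limma, against 0.253% of all genes, and 11 had an unadjusted p under 0.05 (14.4% of all genes). Of these, 9 were lower and 2 higher, against 6.33% and 8.08% of all genes. Their median difference was −0.053, against 0.023 over all genes. Groups did not overlap in 11 genes that were lower and 4 that were higher in these 4 libraries, against 18.1% and 29.3% of all genes. In bulk tissue, fewer cells of a type and less RNA per cell cannot be told apart.

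**Figure D1:**
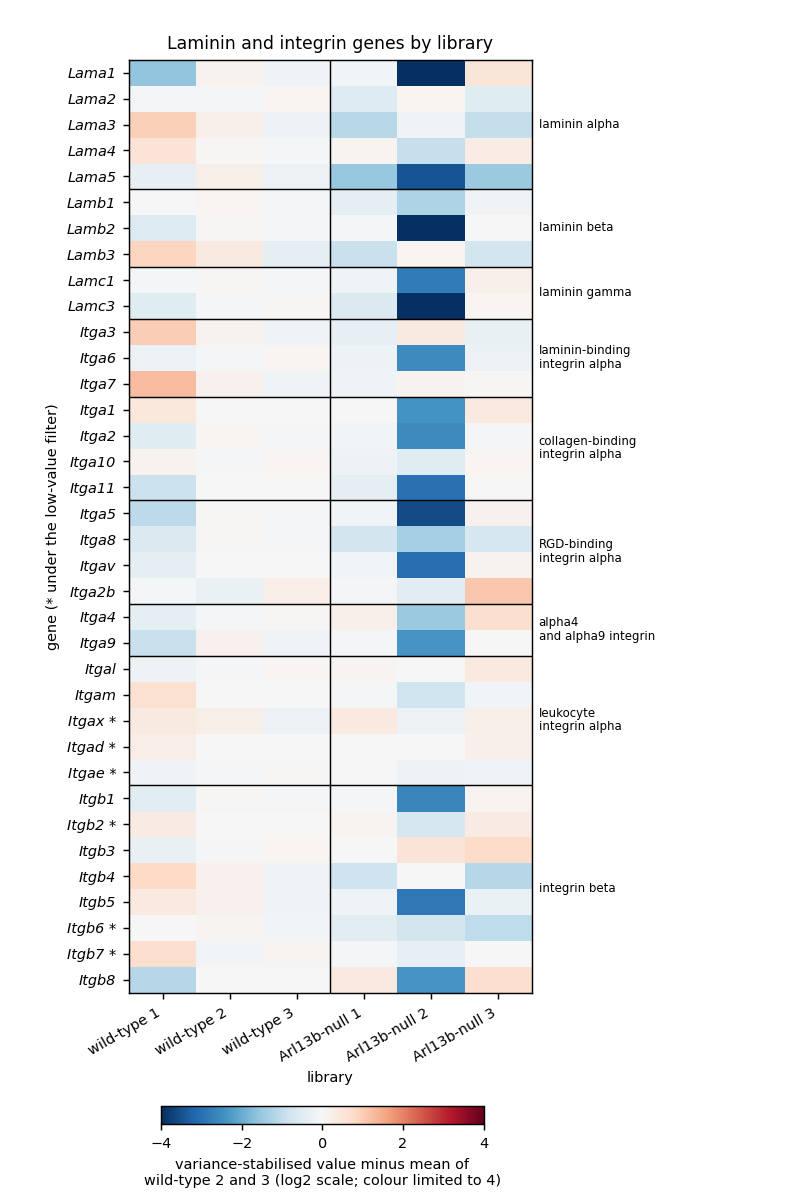
Variance-stabilised values of 36 laminin and integrin genes (rows, grouped by role) in each library (columns), as the difference from the mean of wild-type 2 and 3 on the log2 scale, with colour limited to 4 in either direction. Arl13b-null 2 is the lowest library for 22 of the 31 genes tested (42.7% of all genes), and asterisks mark the 6 genes under the low-value filter.

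**Figure D2:**
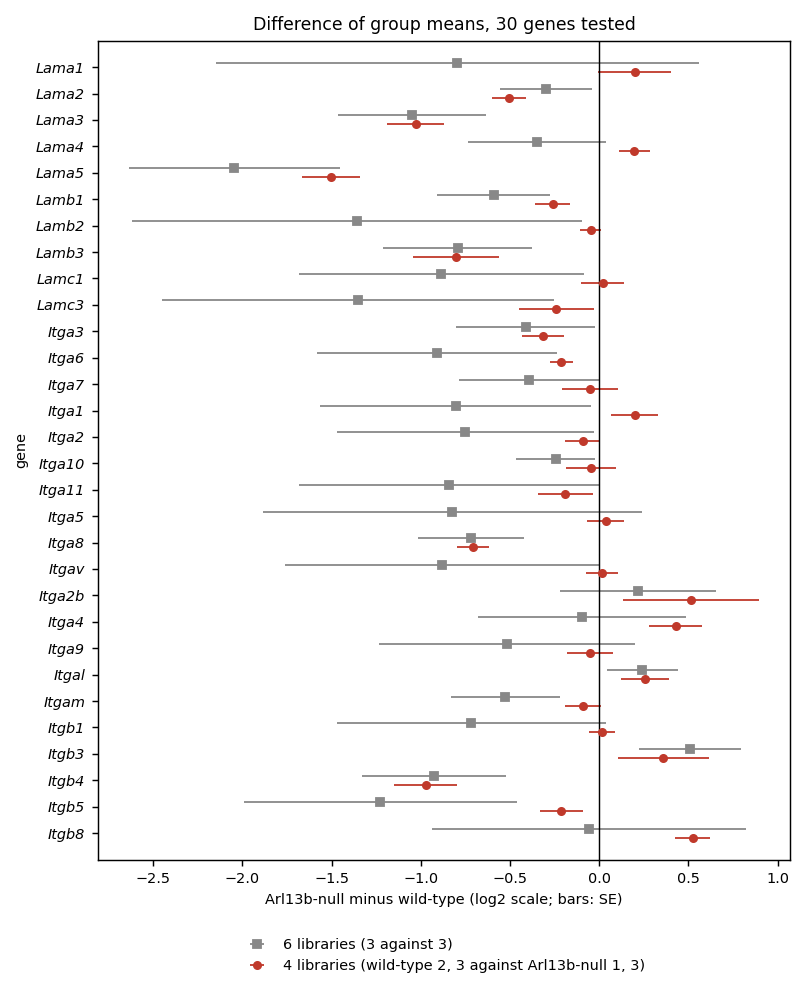
Difference of Arl13b-null minus wild-type means on the log2 scale for 30 of the genes tested, with SE bars, over all 6 libraries (grey squares) and over 4 libraries (red circles). Most 4-library values lie nearer 0 and have shorter bars, while Lama5 lies at −2.05 and −1.50.

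In 4 of the 31 genes tested all 3 Arl13b-null libraries lay below all 3 wild-type libraries: Lama5, Lamb1, Itga8 and Itgam. Over all genes tested, 3.59% had groups that did not overlap in this direction, and 4.67% in the other, where no member was found. Of the 37 genes, 23 were in the RefSeq promoter table (GRCm38.p6), these 4 among them. The 250 bases before the listed start of each are shown because these are the tested members whose groups were apart in that direction, with the GC box GGGCGG, on either strand, in capitals.
Lama5 (chr2:180225860-180226109, minus strand): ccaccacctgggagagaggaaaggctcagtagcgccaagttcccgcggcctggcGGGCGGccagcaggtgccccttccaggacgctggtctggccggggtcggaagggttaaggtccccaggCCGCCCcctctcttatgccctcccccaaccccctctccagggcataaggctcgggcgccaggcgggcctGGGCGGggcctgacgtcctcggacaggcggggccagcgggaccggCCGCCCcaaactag
Lamb1 (chr12:31265043-31265292, plus strand): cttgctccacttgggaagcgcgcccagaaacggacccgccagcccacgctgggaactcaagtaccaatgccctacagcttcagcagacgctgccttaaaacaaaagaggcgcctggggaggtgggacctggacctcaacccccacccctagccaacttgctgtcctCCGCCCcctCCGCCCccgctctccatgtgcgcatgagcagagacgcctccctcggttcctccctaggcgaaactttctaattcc
Itga8 (chr2:12301945-12302194, minus strand): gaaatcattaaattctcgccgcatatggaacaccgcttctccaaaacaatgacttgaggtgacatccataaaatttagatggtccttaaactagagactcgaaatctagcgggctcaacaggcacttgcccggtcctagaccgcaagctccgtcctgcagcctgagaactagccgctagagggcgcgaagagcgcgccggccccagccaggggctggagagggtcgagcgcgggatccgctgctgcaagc
Itgam (chr7:128062390-128062639, plus strand): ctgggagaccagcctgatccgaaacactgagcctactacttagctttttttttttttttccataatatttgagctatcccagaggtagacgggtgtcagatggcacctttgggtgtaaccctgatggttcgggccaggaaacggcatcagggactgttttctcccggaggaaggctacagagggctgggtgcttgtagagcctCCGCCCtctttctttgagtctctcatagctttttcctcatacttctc
The Lama5 window, with 72.4% G and C, held 4 GC boxes, the Lamb1 window 2, the Itgam window 1 and the Itga8 window 0, whereas 32.7% of 32851 such windows held at least 1. Neither the TATA box TATAAA nor the AP-1 motif TGANTCA, which 12.4% and 6.75% of all windows hold, was found in these 4 windows on either strand, and no GC box overlapped another match. A match or its lack describes these letters only.

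Lama5 encodes the laminin alpha5 chain, found in epithelial and vascular basement membranes. Wild-type 1 to 3 gave 522, 798 and 552 normalized counts of Lama5, and Arl13b-null 1 to 3 gave 189, 15.7 and 197. Every Arl13b-null library lay below the lowest wild-type one, and Arl13b-null 1 and 3 had 0.281 and 0.292 times the mean of wild-type 2 and 3. The difference was −2.05 ± 0.59 (SE) on the log2 scale with 6 libraries (limma, adjusted p = 0.990) and −1.50 ± 0.16 with 4 (limma, adjusted p = 0.0526, just outside the threshold). The 4-library difference was −1.26 without wild-type 2, −1.75 without wild-type 3 and −1.48 without Arl13b-null 1. Without Arl13b-null 3, which had the lowest sum of telencephalon markers, it was −1.53. Markers of epithelium were also lower: the 13 genes of that list were all lower in Arl13b-null without overlap, against 3.59% of all genes tested. Their sum was 19620, 4865 and 2211 normalized counts in wild-type 1 to 3 against 942, 216 and 334 in Arl13b-null 1 to 3. Within the wild-type group the orders of Lama5 and of this sum differed, as wild-type 1 had the lowest Lama5 and the highest marker sum. Krt5, Perp, Krt15 and Krt14 were the largest parts of the sum there, at 5392, 3796, 3513 and 2206. Krt8, Krt18 and Epcam peaked in wild-type 2 instead (709, 364 and 292), as Lama5 did, although wild-type 3 was the lowest of the group for them. The other markers on the list peaked in wild-type 1. The part of epithelial cells in the Lama5 values was not tested.

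Lama1, the alpha chain of the first laminin made by the embryo and of the pial sheet, had 617, 2178 and 1764 normalized counts in wild-type and 1834, 41.9 and 2780 in Arl13b-null. Wild-type 1 and Arl13b-null 2 were low, and the other 4 libraries overlapped. The 4-library difference was 0.20 ± 0.20 (SE; limma, adjusted p = 0.711), and it was −0.09 without Arl13b-null 3. Lama4, a chain of vessel walls, had 1310, 926 and 877 in wild-type and 971, 440 and 1121 in Arl13b-null, with a 4-library difference of 0.20 ± 0.08 (SE; limma, adjusted p = 0.371). The 10 endothelial markers summed to between 7356 and 9796 normalized counts outside Arl13b-null 2, where they summed to 890, the library in which Lama4 was also lowest. Lama2, a chain of muscle and vascular basement membranes, had 342, 327 and 381 in wild-type and 228, 379 and 232 in Arl13b-null. Arl13b-null 1 and 3 were below all wild-type libraries and Arl13b-null 2 was not. The difference was −0.51 ± 0.10 with 4 libraries (limma, adjusted p = 0.123) and −0.30 ± 0.26 with 6.

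Among the beta chains, Lamb1, the partner of the early embryonic laminins, had 1995, 2058 and 1864 normalized counts in wild-type and 1483, 798 and 1775 in Arl13b-null. The groups did not overlap, although Arl13b-null 3 lay close under wild-type 3, and the difference was −0.59 ± 0.32 (SE) with 6 libraries and −0.26 ± 0.10 with 4 (limma, adjusted p = 0.990 and 0.324). Lamb2, the beta chain of vascular, synaptic and pial laminins, had 1451, 2200 and 2081 in wild-type and 2007, 39.3 and 2133 in Arl13b-null. Outside Arl13b-null 2 these libraries overlapped, with a 4-library difference of −0.05 ± 0.06 (limma, adjusted p = 0.759). Among the gamma chains, Lamc1, the common partner of most laminins, had 2987, 3302 and 3082 in wild-type and 2851, 404 and 3670 in Arl13b-null. Its 4-library difference was 0.02 ± 0.12 (limma, adjusted p = 0.956), and this sign turned to −0.03 without wild-type 3, to −0.16 without Arl13b-null 3 and to −0.02 with quantile normalization. Lamc3, a gamma chain studied in the cortex and retina, had 437, 627 and 659 in wild-type and 413, 1.31 and 686 in Arl13b-null, so that Arl13b-null 2 had close to none while Arl13b-null 3 was the highest library. Its 4-library difference was −0.24 ± 0.21 (limma, adjusted p = 0.656) and turned to 0.09 without Arl13b-null 1.

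The epithelial chains Lama3 and Lamb3 belong to the laminin that anchors epidermis through the integrin of Itga6 and Itgb4, the receptor of hemidesmosomes. Lama3 had 185, 85.1 and 53.0 normalized counts in wild-type and 10.2, 57.6 and 14.6 in Arl13b-null. Lamb3 had 132, 76.8 and 29.1 in wild-type and 9.47, 55.0 and 14.2 in Arl13b-null. In both genes Arl13b-null 1 and 3 lay below every wild-type library, Arl13b-null 2 lay above wild-type 3, and wild-type 1 was highest. The 4-library differences were −1.03 ± 0.16 (SE) for Lama3 and −0.80 ± 0.24 for Lamb3 (limma, adjusted p = 0.0917 and 0.246). Without wild-type 2 they were −0.84 and −0.45, and without Arl13b-null 3 they were −1.10 and −0.88 (limma, adjusted p = 0.299 and 0.524, and 0.0966 and 0.354).

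Itgb4 had 185, 100 and 65.5 normalized counts in wild-type and 26.3, 79.8 and 14.2 in Arl13b-null, the same order of libraries as Lama3, except that Arl13b-null 1 lay above 3. Its difference was −0.97 ± 0.18 (SE) with 4 libraries (limma, adjusted p = 0.118). This was −1.13 without Arl13b-null 1 and −0.82 without Arl13b-null 3. Itgb6, an integrin of epithelia, was under the filter and not tested, with 17.2, 21.9 and 14.2 in wild-type and 5.82, 1.32 and 0 in Arl13b-null, also without overlap. The sum of epithelial markers ranked the 3 wild-type libraries in the same order as Lama3 and Lamb3 summed. It was lower in Arl13b-null 1 and 3, as these chains were. In Arl13b-null 2 the 2 sums parted. Lama3 and Lamb3 summed to 113 normalized counts, against 19.7 and 28.8 in Arl13b-null 1 and 3. The 13 markers summed to 216, the lowest of the 6 libraries. Of these markers 7 were lowest there, with 4, Krt5 and Krt8 included, at 0. Perp, another of the 13, had 144 there, above 44.3 and 7.36 in Arl13b-null 1 and 3.

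**Figure D3:**
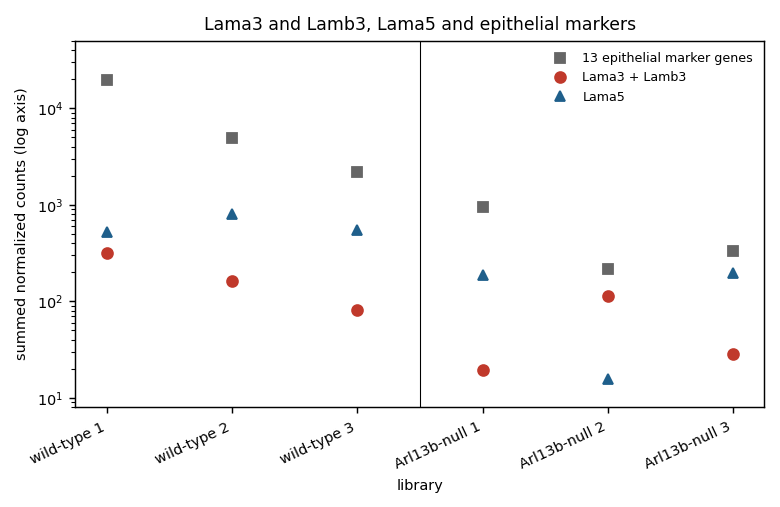
Normalized counts (log axis) in each library of Lama3 and Lamb3 summed (red circles), of Lama5 (blue triangles) and of the 13 summed epithelial markers (grey squares). In Arl13b-null 2 the chains, at 113, lie above those of Arl13b-null 1 and 3, whereas the marker sum, at 216, is at its lowest.

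**Figure D4:**
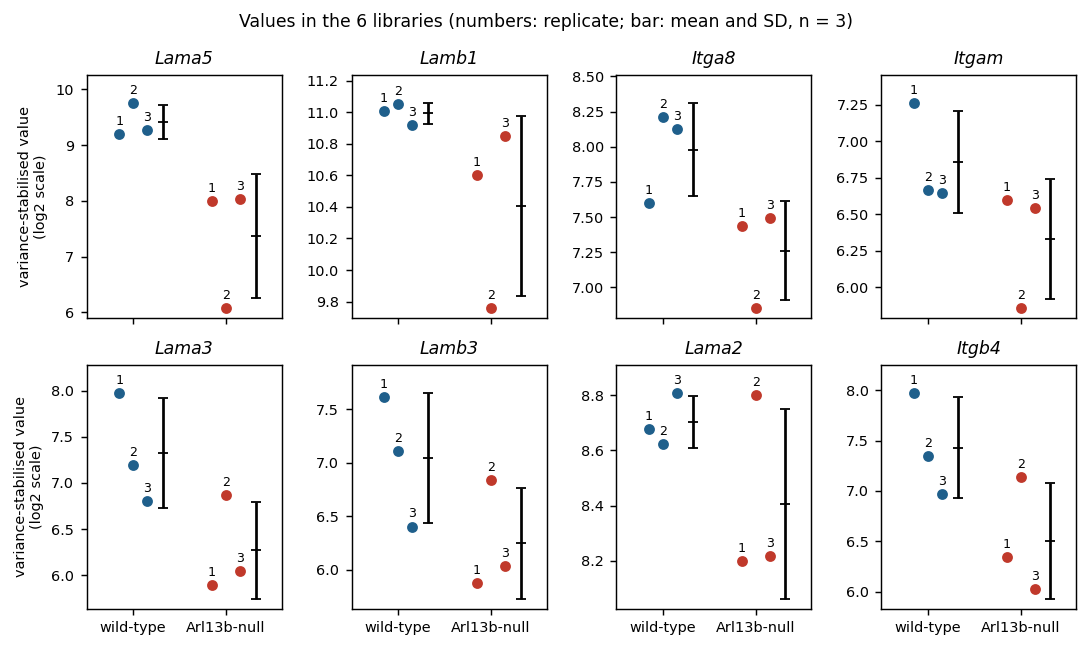
Variance-stabilised values (log2 scale) in each library, numbered by replicate, with the mean and SD of each group (n = 3). The groups do not overlap in the upper row, and in the lower row Arl13b-null 2 lies within the wild-type range while Arl13b-null 1 and 3 lie below it.

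Of the laminin-binding integrin alpha subunits, Itga6, which pairs with Itgb1 or Itgb4 and is carried by radial glia, had 1854, 2106 and 2326 normalized counts in wild-type and 1925, 321 and 1876 in Arl13b-null. Arl13b-null 1 and 3 lay below wild-type 2 and 3 but above wild-type 1, and the 4-library difference was −0.21 ± 0.06 (SE; limma, adjusted p = 0.246). Itga3, the other laminin receptor of radial glia and migrating neurons, had 894, 476 and 372 in wild-type and 322, 564 and 330 in Arl13b-null. Here the 2 libraries that stood apart were the highest. The difference was −0.32 ± 0.12 with 4 libraries (limma, adjusted p = 0.324). Itga7, a laminin receptor of muscle, had 125 in wild-type 1 and between 18.9 and 33.7 elsewhere.

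The collagen-binding subunits Itga1, Itga2, Itga10 and Itga11 were each lowest in Arl13b-null 2, where Itga2 was listed at 0, Itga11 had 2.62 and Itga1 had 20.9 normalized counts. Outside it Itga1 had between 318 and 455, Itga2 between 84.7 and 153, Itga10 between 28.5 and 46.6 and Itga11 between 139 and 306. None of their 4-library differences, between −0.19 and 0.20, passed (limma, adjusted p between 0.554 and 0.908). The sign of the 4-library difference turned for Itga10 (0.03 without wild-type 3) and Itga11 (0.03 without Arl13b-null 1). The 12 markers of mesenchyme and meninges summed to between 27460 and 74000 normalized counts outside Arl13b-null 2 and to 620 there, and their part in these values was not tested.

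Among the integrins that recognise the RGD tripeptide of fibronectin and related ligands, Itga8, which binds nephronectin and is known for its role in the kidney, had 130, 231 and 214 normalized counts in wild-type and 110, 56.3 and 117 in Arl13b-null. The groups did not overlap, and wild-type 1 lay close above Arl13b-null 3. The difference was −0.72 ± 0.30 (SE) with 6 libraries (limma, adjusted p = 0.990) and −0.71 ± 0.09 with 4 (limma, adjusted p = 0.0689, at 0.510 times the wild-type count). The 4-library difference passed with robust moderation (limma, adjusted p = 0.0451), and was −0.68 without Arl13b-null 1 and −0.73 without Arl13b-null 3. Itga5, the fibronectin receptor subunit, had 468, 1057 and 998 in wild-type and 947, 35.3 and 1173 in Arl13b-null. Itgav, which pairs with several beta subunits, had 877, 1152 and 1175 in wild-type and 1081, 86.4 and 1281 in Arl13b-null. For both the 4 libraries overlapped, with differences of 0.04 ± 0.11 and 0.02 ± 0.09 (limma, adjusted p = 0.911 and 0.954), and both signs turned without Arl13b-null 3 (−0.11 and −0.10).

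Itga2b and Itgb3 form the platelet fibrinogen receptor, and Itgb3 also pairs with Itgav. Itga2b had 80.9, 66.1 and 117 normalized counts in wild-type and 84.6, 51.1 and 251 in Arl13b-null, and Itgb3 had 115, 142 and 167 against 150, 246 and 301. Arl13b-null 3 was the highest library for both. Itga2b was lowest in Arl13b-null 2, where Itgb3 was second highest. The 4-library differences were 0.51 ± 0.38 (SE) and 0.36 ± 0.25 (limma, adjusted p = 0.594 and 0.574). Without Arl13b-null 3 they were −0.04 and −0.03, and without Arl13b-null 1 they were 1.07 and 0.75. Pf4 and Ppbp, made by platelets, were also highest in Arl13b-null 3, at 118 and 84.0, and at 0 in Arl13b-null 2. The 8 platelet markers, with 4 at 0 in that library, summed to 6942 there and to between 1050 and 2258 elsewhere. Gp1bb made up most of each sum, with 6860 there and between 808 and 2055 elsewhere. The part of platelets in the Itga2b and Itgb3 values was not tested.

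Itga4, a receptor for fibronectin and Vcam1, had 529, 680 and 715 normalized counts in wild-type and 814, 205 and 1133 in Arl13b-null. Arl13b-null 1 and 3 were above every wild-type library, with a 4-library difference of 0.43 ± 0.15 (SE; limma, adjusted p = 0.293). This difference was 0.65 without Arl13b-null 1 and 0.20 without Arl13b-null 3. Itga9, a related subunit, had 294, 698 and 528 against 571, 71.3 and 595, with a difference of −0.05 ± 0.13. The leukocyte subunits were low. Itgam, of macrophages and microglia, had 91.7, 43.7 and 42.6 in wild-type and 39.4, 9.16 and 36.4 in Arl13b-null, without overlap but with only a small gap, and a 4-library difference of −0.09 ± 0.10 (limma, adjusted p = 0.740). Itgal, of lymphocytes and other white cells, had between 24.1 and 37.9 in wild-type and between 34.0 and 59.2 in Arl13b-null. Itgb2, the beta subunit that both need, was under the filter, with 29.4, 15.9 and 14.95 against 19.7, 1.31 and 29.6. Itgad, Itgae, Itgax and Itgb7 were also under it, with at most 8.65 normalized counts in any library except for Itgb7 in wild-type 1, with 29.4. The 11 macrophage markers in the table summed to between 2149 and 3529 outside Arl13b-null 2 and to 230 there.

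Among the beta subunits, Itgb1, the partner of most alpha subunits, was the most abundant, with 4994, 7016 and 6522 normalized counts in wild-type and 6444, 1049 and 7246 in Arl13b-null. The 4 libraries overlapped, with a difference of 0.01 ± 0.07 (SE; limma, adjusted p = 0.949), which turned to −0.07 without Arl13b-null 3, to −0.04 without wild-type 3 and to −0.05 with quantile normalization. Itgb5, a vitronectin receptor subunit, had 1372, 1153 and 900 in wild-type and 905, 89.1 and 834 in Arl13b-null, with a difference of −0.21 ± 0.12 (limma, adjusted p = 0.489). Itgb8, which with Itgav activates latent TGF-beta and is made by radial glia, had 582, 1360 and 1373 in wild-type and 1803, 214 and 2206 in Arl13b-null. Arl13b-null 1 and 3 were the 2 highest libraries, at 1.32 and 1.61 times the mean of wild-type 2 and 3, and Arl13b-null 2 was the lowest. The difference was 0.52 ± 0.10 with 4 libraries (limma, adjusted p = 0.123) and −0.06 ± 0.88 with 6. The 4-library difference was 0.66 without Arl13b-null 1 and 0.38 without Arl13b-null 3. The 10 radial glia markers summed to 110600 and 112800 in wild-type 2 and 3 and to 124000 and 140500 in Arl13b-null 1 and 3, while wild-type 1 had 46380 and Arl13b-null 2 had 3839, and their part in the Itgb8 values was not tested.

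Arl13b-null 2 held few laminin and integrin transcripts. The 37 genes summed to 5602 normalized counts there and to between 23725 and 31099 in the other libraries. It was the lowest library for 22 of the 31 genes tested, against 42.7% of all genes, and 15 of the 31 had under 0.2 times the mean of wild-type 2 and 3, against 15.4% of all genes. Itga2 was listed at 0, and the next lowest ratios were 0.00203 for Lamc3, 0.00876 for Itga11, 0.0183 for Lamb2 and 0.0212 for Lama1. At the other end, 6 genes were at or above the mean of wild-type 2 and 3, among them Itgb3 at 1.59 times, Itga3 at 1.33, Itga7 at 1.24, Lama2 at 1.07 and Lamb3 at 1.04. The 10 neuron markers summed to 678100 in this library, against between 151000 and 300200 elsewhere, and the markers of dividing cells and of radial glia were lowest there; their part was not tested.

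Dividing by the length of the longest annotated protein-coding transcript allows levels to be compared between genes. In wild-type, Itgb1 had 1619 ± 276 (SD, n = 3) normalized counts per kb, Itga6 486 ± 55 and Lamc1 410 ± 21. Lamb1 had 341 ± 17, Lamb2 339 ± 72, Lama4 172 ± 39 and Lama1 160 ± 85. Lamb1 and Lamb2, like Lama4 and Lama1, thus did not differ beyond their spread, and their order changed between libraries. Lamb2 lay below Lamb1, and Lama1 below Lama4, in wild-type 1, and above them in wild-type 2 and 3. Lama1 took 46.3% and 43.7% of the alpha chain level per kb in wild-type 2 and 3 and 48.8% and 56.1% in Arl13b-null 1 and 3, but 17% in wild-type 1 and 3.56% in Arl13b-null 2. Lama5 took between 11.5% and 14.2% in the 3 wild-type libraries and 4.22%, 1.12% and 3.33% in Arl13b-null 1 to 3, a lower share in each. Lamb1 and Lamb2 split the beta chains, with Lamb1 at between 41.7% and 54.8% outside Arl13b-null 2 and at 88.3% in it. Itga6 was the leading alpha integrin in 5 libraries, at between 31% and 39.4%, and Itga3 led in Arl13b-null 2 at 40.1%. Itgb1 took between 70.0% and 77.8% of the beta integrins in all 6 libraries. These shares are descriptions, with no test.

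**Figure D5:**
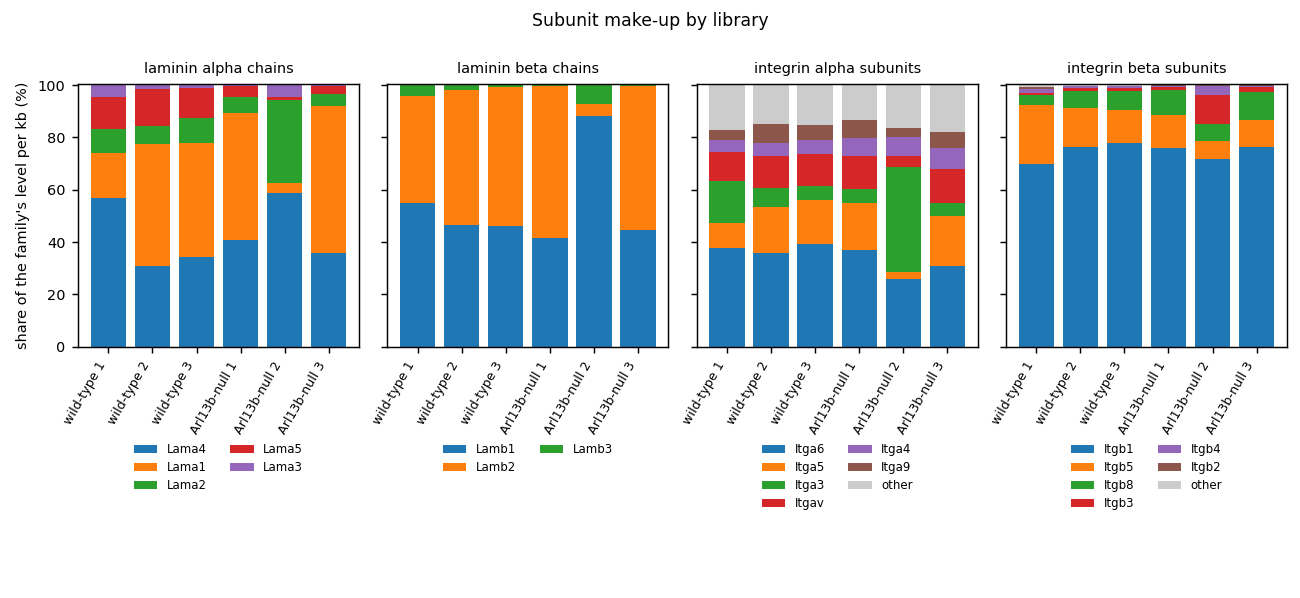
Share (%) of each laminin alpha or beta chain or integrin subunit in the level per kb of its family, by library, with the less abundant subunits pooled as other. Itgb1 holds between 70.0% and 77.8% of the beta integrins in every library, while the Lamb1 and Itga3 shares in Arl13b-null 2 differ from the other 5 libraries.

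The partners of laminins and integrins were read from 5 lists. Of 19 tested basement membrane genes, such as nidogens, type IV collagens and perlecan, 0 passed in limma with either set of libraries. At an unadjusted p under 0.05, 1 was lower with 6 libraries (1.03% of all genes). With 4 libraries 4 were lower and 1 higher (6.33% and 8.08% of all genes), with a median difference of −0.12. The lower ones included Col15a1, a collagen of vessels and muscle (−0.67 ± 0.13, SE), and Fras1, which holds epithelium to mesenchyme (−0.72 ± 0.14), and the higher one was Smoc1 (0.47 ± 0.14; limma, adjusted p = 0.123, 0.132 and 0.249). Smoc2, a secreted matrix protein, did not overlap between the groups of 3, with 241, 575 and 197 normalized counts in wild-type and 127, 28.8 and 133 in Arl13b-null. Of 19 genes of dystroglycan, the other main laminin receptor, and enzymes that add its laminin-binding sugar, 0 passed in limma with either set. At an unadjusted p under 0.05 there were 0 with 6 libraries and 3 with 4 (1.14% and 14.4% of all genes). The 4-library median of the 19 was 0.0038. Dmd, encoding the dystrophin that ties dystroglycan to actin, had the smallest p among them (−0.71 ± 0.09; limma, adjusted p = 0.0689): with 840, 584 and 640 normalized counts in wild-type and 326, 774 and 370 in Arl13b-null, so that Arl13b-null 2 lay within the wild-type range.

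Among 19 tested integrin ligands other than laminins, 1 fell and 1 rose with 4 libraries in limma, where 0.253% of all genes passed. With 6 libraries 0 passed, and 1 was lower and 1 higher at an unadjusted p under 0.05 (1.03% and 0.112% of all genes). Tnc, encoding the matrix protein tenascin-C, fell by 1.40 on the log2 scale (SE 0.14, n = 2 per group; limma, adjusted p = 0.0450). The level was 837 and 625 normalized counts in wild-type 2 and 3, against 248 and 223 in Arl13b-null 1 and 3. Of the other libraries, wild-type 1 had 6639 and Arl13b-null 2 had 902. Spp1, encoding osteopontin, rose by 1.92 ± 0.19 (SE; limma, adjusted p = 0.0444), from 49.9 and 36.0 to 386 and 252, while wild-type 1 had 118 and Arl13b-null 2 had 13.3. Both calls ended without wild-type 2 (limma, adjusted p = 0.135 for Tnc and 0.186 for Spp1), without wild-type 3 (0.0566 and 0.159), with median centring (0.0555 for each), without the mean-variance trend (0.0869 and 0.0859) and with no filter (0.251 for each). Ctgf, a matrix protein that binds integrins, did not overlap over all 6 libraries, with 331, 299 and 234 in wild-type and 522, 870 and 618 in Arl13b-null (1.04 ± 0.27 with 6 libraries; limma, adjusted p = 0.990).

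Of 29 tested genes that link integrins to actin or signal from them inside the cell, 0 passed in limma with either set. Their 4-library median was −0.036. At an unadjusted p under 0.05 there were 1 with 6 libraries and 2 with 4 (1.14% and 14.4% of all genes). Fermt1, an epithelial kindlin that activates integrins, had 47.8, 74.8 and 44.2 normalized counts in wild-type and 5.11, 2.62 and 3.09 in Arl13b-null. The groups did not overlap, and the difference was −1.25 ± 0.19 (SE) with 6 libraries and −1.26 ± 0.17 with 4 (limma, adjusted p = 0.990 and 0.0693). Unlike Lama3 and Lamb3, Fermt1 was low in Arl13b-null 2 too. Tns3, an adaptor at adhesion sites, differed by −0.39 ± 0.08 with 4 libraries (limma, adjusted p = 0.144). Of 6 genes of hemidesmosomes and epidermal anchoring, 2 were lower without overlap between the groups of 3 (3.59% of all genes) and 0 passed in limma. In either set 2 were lower at an unadjusted p under 0.05 (1.03% of all genes with 6 libraries and 6.33% with 4). Col17a1, the transmembrane collagen of hemidesmosomes, had 724, 118 and 92.4 in wild-type and 40.2, 6.48 and 8.0 in Arl13b-null, and Col7a1, the anchoring fibril collagen, had 169, 113 and 116 against 56.3, 7.85 and 64.9. Both were lowest in Arl13b-null 2, while Lama3, Lamb3 and Itgb4 lay there within the wild-type range.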

How the data were processed

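The table deposited by the authors gives 24444 gene symbols in 6 libraries as normalized counts after a variance-stabilising transformation, on a log2 scale from 5.13 to 18.39. The tools are named in the submitters' processing notes without their roles: STAR 2.6.0, Salmon 0.9.1, CASAVA, DESeq2 and DESeq 1.16.1, with the build mm9. For the annotation and filters the sources used here give nothing. The lowest value, shared by all libraries, is that of a count of 0 and fixes the constant of the parametric transformation, which was inverted to give normalized counts. The commonest lowest count was taken as 1 read. On that scale the share of values below 30 that came within 0.05 of an integer was 68.8% to 81.1% per library, so no count test was run.

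Genes with a mean at least 1 above the lowest value (14249) entered limma 3.58.1 (R 4.3.3), two-sided with a trended prior variance. P-values were adjusted by Benjamini-Hochberg over all of them, with a threshold of 0.05. Differences are of deposited values and understate the change of low genes. The tests were also run on simulated data with independent noise for each gene and library. Those data held no library that stood apart across many genes, so they do not check the tests for such libraries. Members, lists and the 4-library comparison were chosen with earlier results of these data known. The rule for named genes takes every member, the targeted gene, up to 4 genes per partner list with the smallest p in either comparison and at most 3 markers per list. The values of some of these genes are not reported here, but they stay in the counts of members and tests. Transcript lengths are from GENCODE vM21 and promoters from RefSeq, both on GRCm38, not the files' build. Figures were drawn with matplotlib 3.10.9.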

Additional observations from a re-analysis of the deposited data

How the results depend on the processing

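With 6 libraries, 0 laminin or integrin genes and 0 partner genes passed under any alternative in limma (no filter, a stricter filter, median centring, quantile normalization, no trend, robust moderation, inverted counts as log2(count + 1), a replicate block and each library left out). Between 1 and 6 of the members tested had an unadjusted p under 0.05 in limma. Over all genes this number lay between 77 (of 12416, stricter filter) and 386 (of 14249, without Arl13b-null 2). The 6 members also came without Arl13b-null 2. All genes past the threshold numbered between 0 and 4 with 1 library left out, 4 without wild-type 1. With 4 libraries the members past the threshold numbered 1 with quantile normalization (Lama5), 2 with robust moderation (Itga8 and Lama5) and between 0 and 6 with 1 library left out, 6 without Arl13b-null 1. All genes past it numbered 36, and 0 with no filter, 59 with quantile normalization, 7 without the trend, 98 with robust moderation and between 6 and 725 with 1 library left out. Partner genes past it numbered 2, and 0 with no filter, with median centring and without the trend, 5 with robust moderation and between 0 and 13 with 1 library left out.

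Signs that turned belong to differences that did not pass. With quantile normalization the 6-library differences were 0.08 for Itga10, 0.05 for Itga4 and 0.06 for Itgb8, and the 4-library ones 0.02 for Itga10, 0.03 for Itga7, −0.01 for Itgav, −0.05 for Itgb1 and −0.02 for Lamc1. Median centring took Itgb1 to 0. With 1 library left out, the 6-library differences lay between −1.33 and 0.06 for Itga1, −1.42 and 0.09 for Itga11, −1.17 and 0.07 for Itga2, −0.22 and 0.54 for Itga2b, −0.53 and 0.55 for Itga4, −1.50 and 0.38 for Itga5, −0.68 and 0.01 for Itga7, −0.92 and 0.25 for Itga9, −1.45 and 0.14 for Itgav, −1.20 and 0.16 for Itgb1, −0.61 and 0.90 for Itgb8, −1.70 and 0.72 for Lama1, −0.59 and 0.03 for Lama4, −2.12 and 0.13 for Lamb2, −1.44 and 0.05 for Lamc1 and −0.85 and 0.36 for Smoc1. The 4-library ones lay between −0.19 and 0.09 for Itga10, −0.41 and 0.03 for Itga11, −0.04 and 1.07 for Itga2b, −0.11 and 0.18 for Itga5, −0.22 and 0.11 for Itga7, −0.23 and 0.13 for Itga9, −0.10 and 0.13 for Itgav, −0.07 and 0.10 for Itgb1, −0.03 and 0.75 for Itgb3, −0.09 and 0.49 for Lama1, −0.16 and 0.20 for Lamc1 and −0.57 and 0.09 for Lamc3. The cause of these turns was not tested. Leaving 1 of 4 libraries out sets 1 library against 2 and takes the spread from the group of 2, so the lone library is assumed to vary like the others.

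With the replicate number as a block, 0 members passed with 6 libraries (limma), and the block changed no other call. Deviations of libraries with the same number correlated at −0.714, −0.707 and 0.623 across genes. Each group held a library that stood apart, and such a library can set these signs. The correlations therefore cannot show whether the numbers pair the libraries. No paired analysis was possible with 4 libraries because the groups share 1 number. Depth limits genes of few reads, Itgad, Itgae, Itgax, Itgb2, Itgb6 and Itgb7 among them.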
